A study of Homo sapiens with 12 samples.

Results

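The protein components found in the U11/U12 particle of the minor spliceosome, but not in the major one, are encoded by ZRSR2, RNPC3, PDCD7, SNRNP48, SNRNP35, SNRNP25, ZMAT5 and ZCRB1. These 8 genes were taken by name from the 58735 genes counted in each library, and the rule uses no measured value. RNA was sequenced with paired reads of 126 nt in 12 libraries, 3 per group, from HEK293T, a line of human embryonic kidney origin into which the SV40 large T antigen was introduced. In the plasmid groups, cells received 500 ng of a plasmid for the microRNA miR-211 or of a control plasmid, with a transfection efficiency that the labels put at 50% or more by GFP. In the oligo groups, cells received a Dicer-substrate siRNA that targets U1 small nuclear RNA at 1 nM, which the labels say lowered U1 by 30%, or a scrambled oligo whose dose the labels do not state. The titles of these 6 libraries also carry the mark WT, which the plasmid titles lack and the labels do not explain. RNA was taken 24 h after transfection, and the plasmid-treated wells may thus hold a mixture of transfected and untransfected cells. The series title concerns the modulation of mRNA splicing by intronic microRNAs, and the groups ask what miR-211 and a lowered U1 do to gene expression.

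A small class of introns is removed by a separate machinery, the minor spliceosome. In the major spliceosome the U1 particle recognises the 5′ splice site and the U2 particle the branch point, each arriving on its own. In the minor spliceosome U11 and U12 arrive together as a preformed di-particle, which reads a long and strongly conserved 5′ splice site and the branch point at the same time. The particle shares the Sm proteins and the SF3b complex with the major machinery, while the 8 proteins described here take the places of the U1 proteins and of other early factors. Mutations in ZRSR2 occur in myelodysplastic syndromes, and inherited mutations in RNPC3 cause growth hormone deficiency.

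All 8 genes were detected in all 12 libraries, and none of them passed the test in any comparison, as was true of nearly all genes tested. With miR-211 against the control plasmid, 0 of 8 passed an adjusted p of 0.05 (edgeR quasi-likelihood test with Benjamini-Hochberg adjustment over 12685 genes), where 0.00788% of all genes tested passed. With U1 siRNA against the scrambled oligo, 0 of 8 passed and 0% of 12413 genes did. The same held for the 2 control groups set against each other, where 0 of 8 and 0% of 12650 genes passed. The difference between the miR-211 and U1 siRNA effects, tested over all 12 libraries, passed for 0 of 8 and for 0.0074% of 13520 genes. At an unadjusted p under 0.05 the count was also 0 of 8 in each of the 3 comparisons by edgeR, DESeq2 and limma-voom, and for the difference of effects by edgeR. These counts do not set the 8 genes apart from the rest. The 95% intervals given with each gene show which changes the data leave room for in a fit that does not pair libraries. For edgeR the share of all genes at that unadjusted level was 3.29% with miR-211, 1.58% with U1 siRNA, 7.79% between the controls and 1.73% for the difference of effects. Each comparison uses 3 libraries a group, and the control comparison uses the same control libraries as the others.

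RNPC3 and SNRNP48 hold a sequence that ties them to their own particle, a pair of U12-type 5′ splice site strings lying close together. Such pairs are known as elements that U11 binds without splicing there, and through them the U11/U12 particle can change how the transcripts of its own proteins are processed. The strings are shown with the 2 copies of the site in capitals, read from the GENCODE 29 transcripts on GRCh38, beside the start of U11 RNA with its first 7 bases in capitals and miR-211-5p with its seed, bases 2 to 8, in capitals.
RNPC3, chr1:103553318-103553341, plus strand: GTATCCTTTcttgtcGTATCCTTT
SNRNP48, chr6:7599736-7599762, plus strand: GTATCCTTTttgcaaatgATATCCTTT
RNU11, bases 1 to 20 of 134: AAAAAGGgcttctgtcgtga
miR-211-5p: uUCCCUUUgucauccuucgccu

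In RNPC3 the sites start 15 bases apart, in the 3′ UTR of 2 coding transcripts, RNPC3-202 and RNPC3-208. Of its 9 annotated transcripts, 3 reach the element with an exon, 1 has it inside an intron and 5 do not cover it. In SNRNP48 the sites start 18 bases apart in SNRNP48-202, a transcript with a retained intron, and the other 2 of its 3 transcripts splice the element out with an intron. The capital stretch CCTTT of every site, with up to 2 further T bases where they follow, is complementary to the start of U11, giving runs of 5 to 7 bases.

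The search covered spliced transcript sequence on the transcript's own strand, with ATATCCTTT and GTATCCTTT as the only motifs. RNPC3 holds a further single site at chromosome 1, 103551074 to 103551082, and the other 6 genes hold none in this sequence. Among 19922 protein-coding genes, 984 (4.94%) held at least 1 site and 5 (0.0251%) held 2 within 30 bases. These 5 were RNPC3, SNRNP48, LPAR6, TYSND1 and ZNF578, named because they are so few. A match describes the letters only, and gene counts do not show which transcript of RNPC3 or SNRNP48 was made or how it was spliced.

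The miR-211 seed pairs with AAAGGGA, searched with the longer AAAGGGAA and with AAGGGAA, which overlap each other, on the transcript strand of 3′ UTRs. None of the 8 genes held any of them in the UTR of the transcript used for it, while 4356 of 18928 protein-coding genes (23.0%) held at least 1. The lengths searched differed widely, from 18 bases in ZRSR2 and 269 in ZMAT5 to 1851 in RNPC3 and 3094 in SNRNP48. MIR211 itself was listed at 236.1 to 271.2 CPM (counts scaled to the library total) in the miR-211 libraries and at 0.134 to 1.30 CPM with the control plasmid.

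The summed level of the 8 genes was 347.4 ± 13.0 CPM with miR-211 and 347.4 ± 12.6 CPM with the control plasmid (SD, n = 3 libraries each). In the oligo groups it was 362.6 ± 7.94 CPM (U1 siRNA) and 357.3 ± 8.32 CPM (scrambled). ZCRB1 and SNRNP25 together made up 59.5% of that sum on average, and 57.4% to 62.3% over the libraries. CPM here divides by the total counted to genes, 4515728 to 9290686 per library.

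Compared per length of annotated exon, the 8 genes covered a wide range. ZCRB1 stood at 44.6 CPM per kb and SNRNP25 at 33.2, followed by SNRNP48 at 8.47, SNRNP35 at 6.10, RNPC3 at 5.18, PDCD7 at 4.18, ZRSR2 at 3.14 and ZMAT5 at 2.06. Among 19145 detected protein-coding genes, ZCRB1 was thus at the 94.4th percentile and ZMAT5 at the 64.8th, and the other 6 lay between. The order was steady at its ends: ZMAT5 was lowest of the 8 and SNRNP48 next after the top pair in each library, and ZCRB1 and SNRNP25 held the top places between them. These places hold for the unstranded counts, which for ZMAT5, SNRNP25, SNRNP35 and RNPC3 leave out pairs that also fall on a neighbouring gene. The shared bases stay in the length, 40.1% of it for SNRNP35 and 18.9% for RNPC3. Levels per length of these genes are thus low estimates, and the place of SNRNP48 above SNRNP35 may depend on that. RNPC3, SNRNP35, PDCD7 and ZRSR2 exchanged places from library to library.

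The 7 genes of SF3b, the branch point complex that both machineries share, ran from 11.8 CPM per kb for SF3B4 to 652.0 for SF3B5. SF3B6 at 434.4 and PHF5A at 198.3 lay far above ZCRB1, while SF3B1 at 62.1, SF3B3 at 57.7 and SF3B2 at 48.7 lay close to it, and SF3B4 lay below ZCRB1 and SNRNP25. SNRPC, a U1 protein, stood at 438.4 CPM per kb, SNRPB2, a U2 protein, at 62.9, and SNRPA, the U1 protein that binds a U1 stem-loop, at 9.57. SNRNP70, the U1 counterpart of SNRNP35, was lower than SNRNP35, at 3.28, and U2AF2 of the major machinery stood at 2.72. The exon length of all annotated isoforms enters these levels, so a gene with long rare isoforms appears lower. U2AF1, a relative of ZRSR2 in the major machinery, was at 2.48 CPM per kb, but it has a near-identical copy in the reference, and its counts are uncertain.

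**Figure D1:**
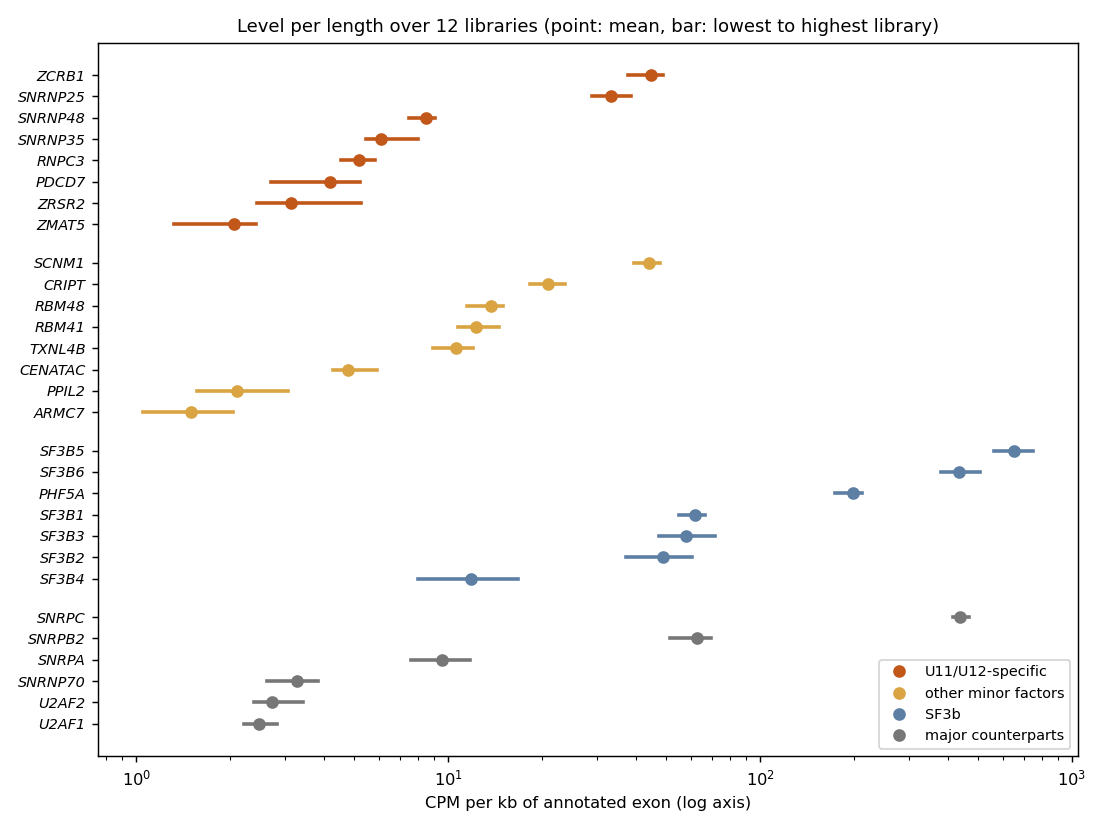
Level per kb of annotated exon on a log axis, with points for the mean of 12 libraries and bars from the lowest to the highest library, for the 8 U11/U12-specific genes and for 3 lists of other spliceosome genes. The 8 genes run from 2.06 for ZMAT5 to 44.6 for ZCRB1, and SF3B5 is the highest gene shown, at 652.0.

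ZRSR2 (ENSG00000169249, chromosome X, 15790472 to 15823260, plus strand, GENCODE 29 on GRCh38) encodes the protein that contacts the 3′ splice site of minor introns. It was at 7.08, 5.20 and 8.54 CPM in miR-211 libraries 1, 2 and 3 and at 5.46, 6.04 and 6.01 CPM with the control plasmid. It was at 5.52, 6.20 and 5.05 CPM with U1 siRNA and at 10.9, 6.61 and 5.60 CPM with the scrambled oligo. The groups overlapped in both comparisons, and scrambled oligo library 1 was the highest of the 12, with 80 counts and an exact Poisson 95% interval of 8.64 to 13.6 CPM that covers counting error only. The log2 fold change was 0.27 (SE 0.21, edgeR adjusted p 0.996) with miR-211 and -0.47 (SE 0.28, adjusted p 0.9999) with U1 siRNA.

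The U1 siRNA value of ZRSR2 was the widest from 0 among the 8 genes, with a 95% interval from -1.10 to 0.15, or from 0.468 to 1.11 times the scrambled oligo level. Without scrambled oligo library 1 it was -0.13, and without scrambled oligo library 3 it was -0.68, so its size depended on single control libraries. The difference between the miR-211 and the U1 siRNA effect was 0.73 on the log2 scale for ZRSR2 (SE 0.36, interval -0.03 to 1.48, edgeR adjusted p 0.999). It was 0.37 without scrambled oligo library 1 and 0.94 without scrambled oligo library 3. ZRSR2 is also thinly counted, with 28 to 80 counts per library. Its copy ZRSR2P1 (chromosome 5, 112891610 to 112893079) is 93.8% identical over the aligned transcript, and reads that fit both places equally well are in neither count. ZRSR2P1 was listed at 0 in all libraries, but all of its bases are shared with exons of SRP19 and REEP5, so its count cannot measure it.

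RNPC3 (ENSG00000185946, chromosome 1, 103525691 to 103555239, plus strand) encodes the 65K protein, which binds U12 RNA and joins the U12 and U11 parts of the particle. Its level was 38.9, 34.6 and 40.1 CPM with miR-211 and 33.7, 35.1 and 35.7 CPM with the control plasmid. It was 31.2, 32.8 and 37.1 CPM with U1 siRNA and 38.6, 35.6 and 33.3 CPM with the scrambled oligo. The groups overlapped in both comparisons: miR-211 library 2 lay within the range of the control plasmid, and U1 siRNA library 3 within that of the scrambled oligo. Its fitted log2 fold change was 0.15 (SE 0.10, edgeR adjusted p 0.996) with miR-211 and -0.09 (SE 0.12, adjusted p 0.9999) with U1 siRNA. The 95% intervals ran from 0.951 to 1.29 times and from 0.784 to 1.12 times the control level.

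PDCD7 (ENSG00000090470, chromosome 15, 65117379 to 65133836, minus strand) encodes the 59K protein, the partner of RNPC3 on the U11 side of the bridge. It was at 13.5, 14.7 and 14.5 CPM with miR-211 and at 13.3, 12.7 and 17.0 CPM with the control plasmid. With U1 siRNA it was at 12.8, 11.3 and 14.8 CPM, and with the scrambled oligo at 15.0, 15.4 and 8.83 CPM. Scrambled oligo library 3 was the lowest of the 12, and the groups overlapped in both comparisons. On the log2 scale the change was 0.02 (SE 0.14, edgeR adjusted p 0.997) with miR-211. It was 0.01 (SE 0.22, edgeR adjusted p 0.9999) with U1 siRNA, and -0.23 without scrambled oligo library 3.

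SNRNP48 (ENSG00000168566, chromosome 6, 7590199 to 7611967, plus strand) encodes the 48K protein, which contacts the 5′ splice site beside U11. It was at 44.5, 52.6 and 43.6 CPM with miR-211 and at 52.8, 51.2 and 51.8 CPM with the control plasmid. Libraries 1 and 3 with miR-211 lay below all control libraries, and library 2 lay among them. It was at 52.0, 47.8 and 50.7 CPM with U1 siRNA and at 52.3, 48.3 and 45.2 CPM with the scrambled oligo, which overlapped. In the fit the log2 fold change was -0.12 (SE 0.10, edgeR adjusted p 0.996) with miR-211 and 0.04 (SE 0.10, adjusted p 0.9999) with U1 siRNA.

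The genes with the paired U12-type strings, RNPC3 and SNRNP48, thus had values on opposite sides of 0 in both comparisons. All of these values had 95% intervals that included 0. With U1 siRNA the SNRNP48 value changed sign in 3 of 17 alternatives, and was -0.01 without scrambled oligo library 3. For SNRNP48 the intervals were 0.796 to 1.07 times the control level with miR-211 and 0.881 to 1.20 times with U1 siRNA. Changes of processing that leave the exon total alone would not appear in these values.

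SNRNP35 (ENSG00000184209, chromosome 12, 123457641 to 123473154, plus strand) encodes the 35K protein, the counterpart of the U1 protein SNRNP70. It was at 29.8, 30.3 and 29.5 CPM with miR-211 and at 29.2, 32.8 and 34.9 CPM with the control plasmid. With U1 siRNA it was at 28.7, 41.2 and 28.6 CPM, and with the scrambled oligo at 28.1, 32.0 and 31.0 CPM. U1 siRNA library 2 was the highest of the 12, with an exact Poisson 95% interval of 35.5 to 47.6 CPM, and the other U1 siRNA libraries lay within the scrambled range. The log2 fold change was -0.09 (SE 0.11, edgeR adjusted p 0.996) with miR-211 and 0.09 (SE 0.14, adjusted p 0.9999) with U1 siRNA. Without U1 siRNA library 2 the latter turned to -0.07.

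That library stood apart from the other 11 in general: 44.5% of its uniquely mapped pairs fell outside annotated exons, against 14.5% to 25.5%, and its total was the lowest. It also had the most genes detected, 39294 against 24728 to 36453 in the others. Its summed levels of blood (9.30 CPM), endothelial (12.8), fibroblast (15.1) and melanocyte (22.6) markers were the highest. These were lists of 5, 3, 4 and 5 genes, of which 2 each averaged 1 CPM or more. MITF alone gave 16.4 CPM of its melanocyte sum. In all 12 libraries together these sums ran from 2.52 to 9.30, 0.591 to 12.8, 2.36 to 15.1 and 11.5 to 22.6 CPM, and no marker was at 0 in all libraries. When each library's percentage outside exons entered the fit as covariate, the SNRNP35 value with U1 siRNA was -0.00498, against 0.09 without it. That percentage was highest in U1 siRNA library 2, so this fit cannot tell it apart from other features of that library. The part of the markers or of the genes detected in the SNRNP35 value was not tested. Of 7 genes chosen for the HEK293 line, 5 averaged 1 CPM or more, and their sum ran from 133.3 to 159.0 CPM. The summed level of 15 annotated U1 genes was 16.6 ± 2.51 CPM (SD, n = 3) with U1 siRNA and 18.4 ± 1.65 CPM (SD, n = 3) with the scrambled oligo. The libraries overlapped, at 13.95 to 18.92 and 16.47 to 19.35 CPM. Reads that fit several U1 copies equally well are in no gene count, so this sum cannot measure what the siRNA did to U1. In bulk RNA, fewer cells with a transcript and less of it per cell cannot be told apart.

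SNRNP25 (ENSG00000161981, chromosome 16, 53010 to 57669, plus strand) encodes the 25K protein of the U11 particle. Its level was 90.3, 99.5 and 117.8 CPM with miR-211 and 88.3, 98.1 and 107.0 CPM with the control plasmid. The miR-211 library was the higher in each of the 3 same-numbered pairs, and yet the groups overlapped, since both spread widely. With U1 siRNA it was 105.8, 106.5 and 103.0 CPM, a narrow spread, and with the scrambled oligo 94.99, 102.1 and 105.1 CPM. Its fitted log2 fold change was 0.10 (SE 0.11, edgeR adjusted p 0.996) with miR-211 and 0.05 (SE 0.07, adjusted p 0.9999) with U1 siRNA.

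ZMAT5 (ENSG00000100319, chromosome 22, 29730956 to 29767011, minus strand) encodes the 20K protein, which has a zinc finger. Its level was 5.93, 7.68 and 6.98 CPM with miR-211 and 7.39, 7.63 and 5.61 CPM with the control plasmid. It was 6.78, 7.75 and 6.10 CPM with U1 siRNA and 5.45, 4.23 and 7.43 CPM with the scrambled oligo. The groups overlapped in both comparisons, and the lowest library, with 25 counts, was scrambled oligo 2. On the log2 scale the change was 0.05 (SE 0.19, edgeR adjusted p 0.997) with miR-211 and 0.23 (SE 0.25, adjusted p 0.9999) with U1 siRNA. With ZRSR2 it was the least closely bounded: its U1 siRNA interval ran from 0.801 to 1.72 times the scrambled level.

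ZCRB1 (ENSG00000139168, chromosome 12, 42312078 to 42326118, minus strand) encodes the 31K protein, which joins a zinc knuckle to an RNA recognition motif. It was at 102.5, 111.7 and 92.5 CPM with miR-211 and at 102.8, 108.9 and 98.6 CPM with the control plasmid. It was at 117.1, 118.0 and 111.1 CPM with U1 siRNA and at 114.9, 119.6 and 111.6 CPM with the scrambled oligo. Each treated group overlapped its own control, and the 6 oligo libraries were on the whole higher than the 6 plasmid libraries, with miR-211 library 2 the exception at 111.7. In the fit the log2 fold change was 0.01 (SE 0.09, edgeR adjusted p 0.997) with miR-211 and -0.01 (SE 0.07, adjusted p 0.9999) with U1 siRNA. These were the closest bounds among the 8: the U1 siRNA interval was 0.890 to 1.11 times the scrambled level.

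**Figure D2:**
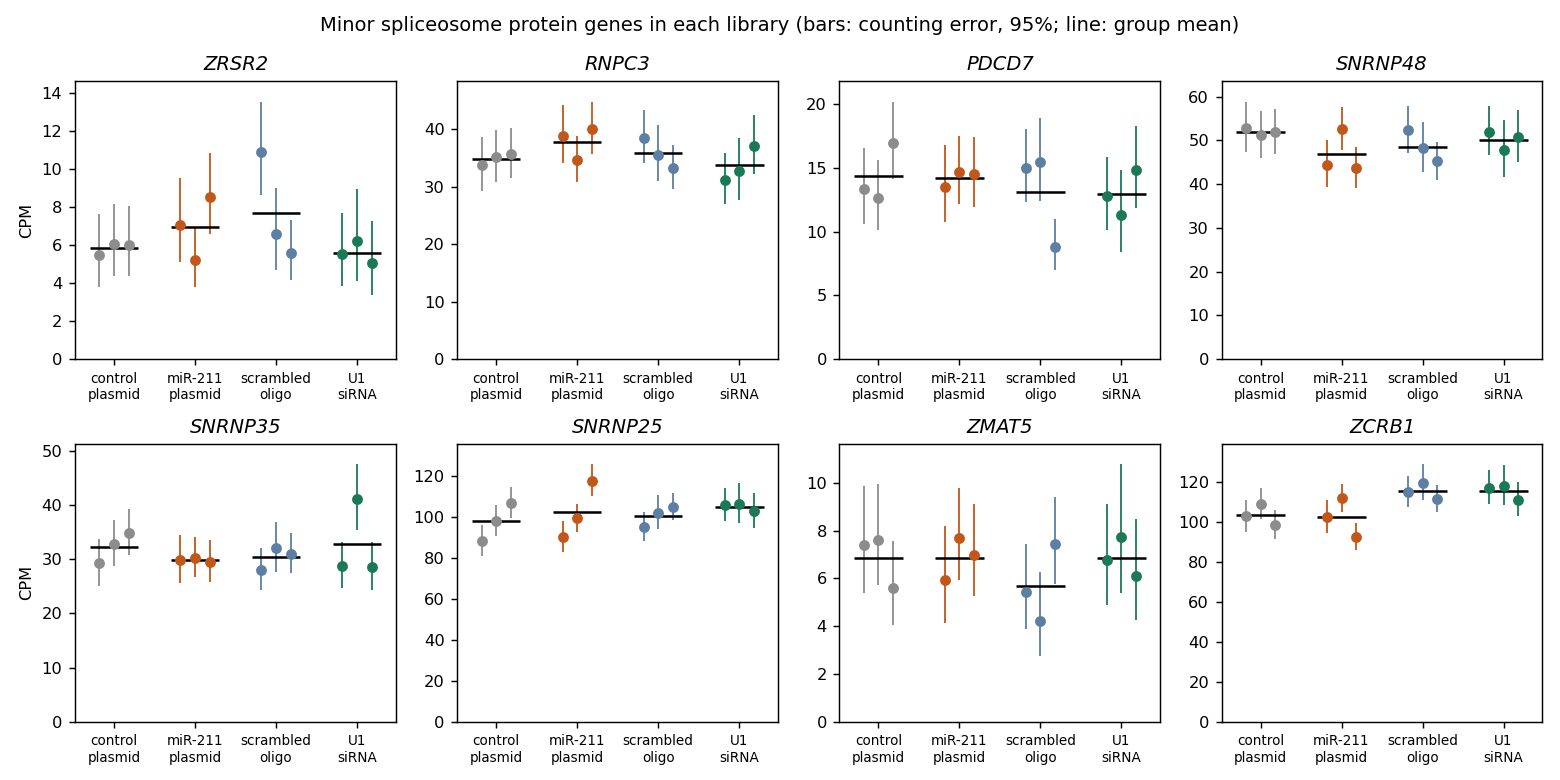
CPM of each of the 8 genes in the 12 libraries, with a point per library, a bar for the exact Poisson 95% interval (counting error only) and a line for the group mean. Points of treated and control groups overlap in all panels, scrambled oligo library 1 is high for ZRSR2 at 10.9, and U1 siRNA library 2 is high for SNRNP35 at 41.2.

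The control plasmid and the scrambled oligo were compared to show how far the 8 genes differ between cells that got no active agent. Plasmid or oligo, the amount given and the WT mark of the oligo titles cannot be told apart there. ZCRB1 was the only one of the 8 genes whose control groups did not overlap, where 13.9% of all genes tested had groups that did not overlap. It averaged 103.4 ± 5.19 CPM with the control plasmid and 115.4 ± 4.01 CPM with the scrambled oligo, a log2 fold change of -0.15 (SE 0.07, edgeR unadjusted p 0.0567, adjusted p 0.662). In the miR-211 and U1 siRNA comparisons, 0 of 8 did not overlap, against 9.7% and 6.45% of all genes.

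The other 7 genes ranged in that comparison of controls from -0.38 (SE 0.24) for ZRSR2 to 0.23 (SE 0.22) for ZMAT5 on the log2 scale. Without scrambled oligo library 1 the ZRSR2 value was -0.01, and without scrambled oligo library 3 it was -0.61. When the 4 groups were put in order of mean CPM for each gene, 24 pairs of neighbours arose, and in 1 of them the gap exceeded the larger SD. That pair was the scrambled oligo and the control plasmid for ZCRB1.

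**Figure D3:**
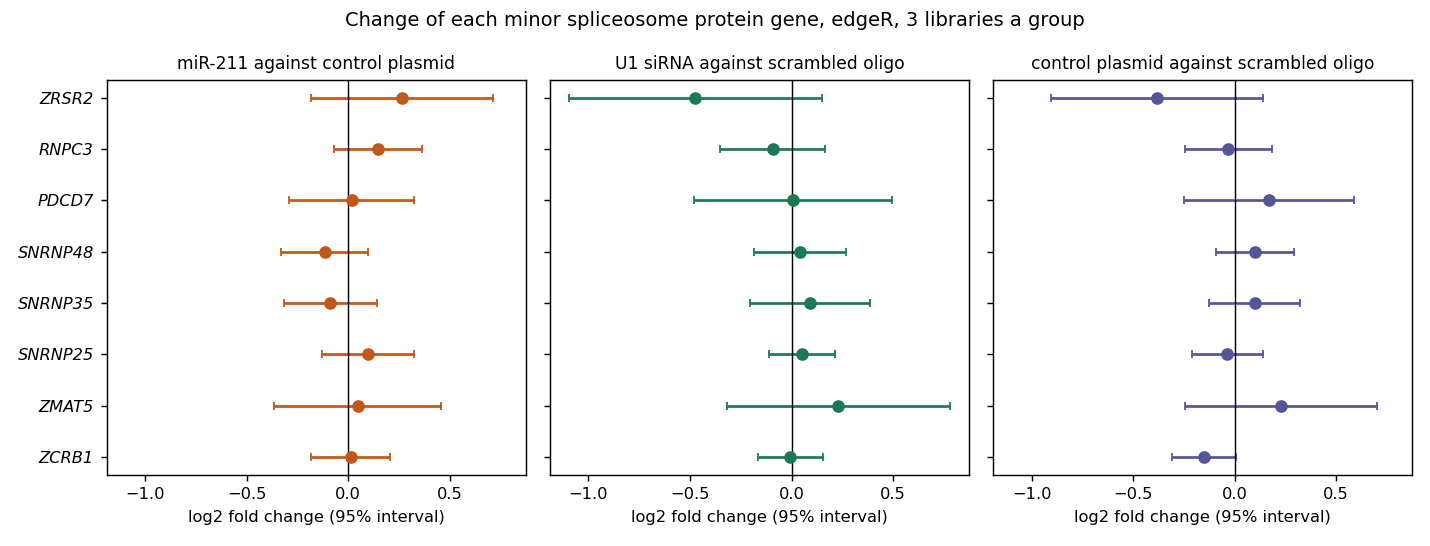
Log2 fold change of each gene with its 95% interval in the 3 comparisons of 3 against 3 libraries, by edgeR. All 24 intervals include 0, the U1 siRNA interval of ZRSR2 reaches from -1.10 to 0.15, and the interval of ZCRB1 between the controls ends at 0.005.

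Spread between libraries set how small a difference could be seen. The pooled coefficient of variation (CV) within groups was 5.60% for ZCRB1, 6.61% for SNRNP48, 7.12% for RNPC3 and 8.73% for SNRNP25. It was 12.9% for SNRNP35, 17.4% for PDCD7, 17.5% for ZMAT5 and 25.6% for ZRSR2. Counting alone gives 6.52% for RNPC3, 5.54% for SNRNP48 and 15.2% for ZMAT5, which is most of what was seen there. For SNRNP25 counting gives 3.86%, and for ZRSR2 15.2%, so libraries of a group differed by more than counting error.

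Neighbouring genes limited several of the counts, because a read pair over 2 genes is counted for neither. SNRNP25 shares 153 exon bases (5%) with POLR3K on the opposite strand. It was counted 8353 times without strand, but 11902 and 11205 times in the 2 strand columns, whose sum is 2.77 times the unstranded count. The same ratio was 1.69 for ZMAT5, which shares 399 bases (12.5%) with CABP7, and 1.19 for SNRNP35, which shares 2063 bases (40.1%) with RILPL1. Reads of these opposite neighbours cannot be told apart from their own in either column, so the level of SNRNP25 per length is a low estimate without strand and a mixed one with it. RNPC3 shares 1295 bases (18.9%) with AMY2B on its own strand, and there the columns cannot help. ZRSR2, PDCD7, SNRNP48 and ZCRB1 share no exon bases with another gene.

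**Figure D4:**
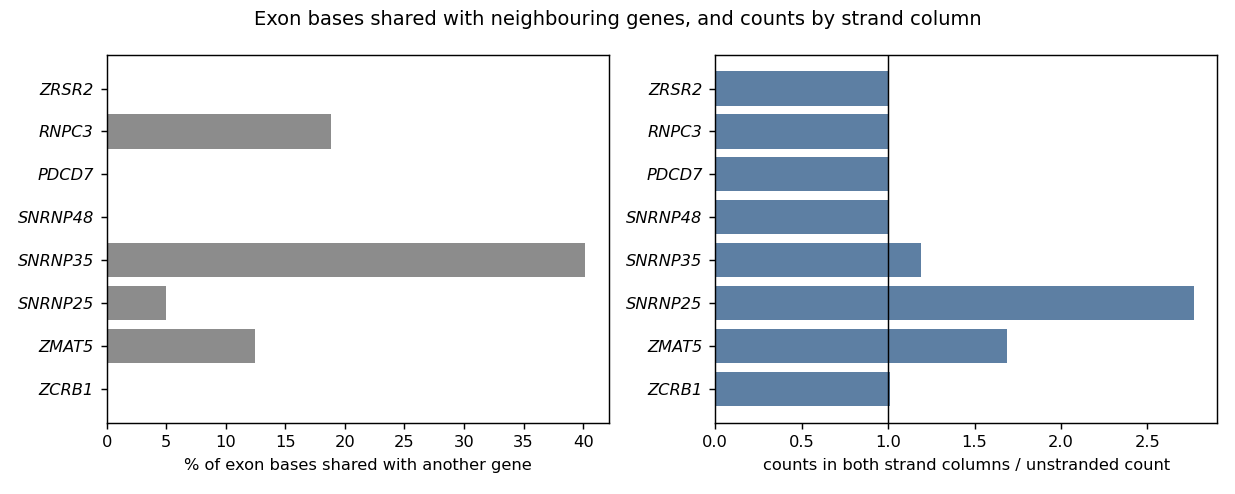
Left, percent of each gene's annotated exon bases that lie in an exon of another gene. Right, the counts of both strand columns added and divided by the unstranded count, with a line at 1: SNRNP25 reaches 2.77, ZMAT5 1.69 and SNRNP35 1.19, and the others lie at or near 1.

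The other genes of the pathway gave no called gene either. The list of further minor spliceosome factors held SCNM1, CENATAC, TXNL4B, RBM48, ARMC7, CRIPT, RBM41 and PPIL2. With miR-211, 0 of 8 passed, and 2 had higher and 6 lower values, against 6566 higher and 6119 lower over all genes tested. The median log2 fold change was -0.13, against 0.008 over all genes tested. That median was -0.16 without miR-211 library 2, -0.09 without miR-211 library 3, and -0.08 and -0.06 in the strand columns. Over the 17 alternatives it ran from -0.16 to -0.06. At an unadjusted p under 0.05 there were 2 of 8, PPIL2 and TXNL4B, against 3.29% of all genes. The highest was PPIL2, a ubiquitin ligase-like protein of the activated spliceosome, at 0.42 (SE 0.15, 95% interval 0.09 to 0.75, edgeR unadjusted p 0.0151, adjusted p 0.996). TXNL4B, named after its value was seen, was at -0.22 (SE 0.10, 95% interval -0.44 to -0.005, edgeR unadjusted p 0.0456, adjusted p 0.996). The lowest was ARMC7, the partner of RBM48 in binding the U6atac cap, at -0.28 (SE 0.25, edgeR adjusted p 0.996). With U1 siRNA, 0 of 8 passed, with 3 higher and 5 lower values, against 6791 higher and 5622 lower over all genes. The list had a median of -0.006 against 0.02 over all genes. Its extremes were CRIPT at 0.08 (SE 0.10) and RBM48 at -0.09 (SE 0.11).

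The SF3b proteins, which serve both spliceosomes, had 0 of 7 past the threshold in either comparison. Their median log2 fold change was 0.01 with miR-211, from PHF5A at -0.02 to SF3B5 at 0.21 (SE 0.08, 95% interval 0.03 to 0.39, edgeR unadjusted p 0.0232, adjusted p 0.996). With U1 siRNA their median was -0.03, from SF3B6 at -0.04 to SF3B5 at 0.04. At an edgeR unadjusted p under 0.05 there was 1 of 7 with miR-211, against 3.29% of all genes, and 0 of 7 with U1 siRNA, against 1.58%. Of 6 related proteins of the major machinery, 0 passed. ZRSR2P1, the pseudogene copy of ZRSR2, stood on the same list but had no counts and was not tested. They ranged from SNRPB2 at -0.11 to U2AF2, the partner of U2AF1 at the 3′ splice site, at 0.17 with miR-211, and from SNRPA at -0.05 to U2AF2 at 0.03 with U1 siRNA.

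Genes known to hold minor introns were listed from general knowledge, 17 in number, and none of their introns was read from a genome here. With miR-211, 0 of 17 passed, and 5 values were higher and 12 lower, against 6566 higher and 6119 lower over all genes tested. The median was -0.12 against 0.008 over all genes tested. That median was -0.06 without control plasmid library 2, -0.07 without miR-211 library 2 or 3, and -0.04 in the first strand column. Over the 17 alternatives it ran from -0.14, with library totals only, to -0.04. The values ran from DIABLO, a mitochondrial activator of apoptosis, at -0.44 (SE 0.33) to the kinase gene STK11 at 0.31 (SE 0.49). With U1 siRNA, 0 of 16 tested passed, 7 were higher and 9 lower, the median was -0.02 against 0.02, and the values ran from LZTR1 at -0.19 (SE 0.30) to NOP2 at 0.19 (SE 0.19). The 8 genes themselves had medians of 0.03 in both comparisons, with 6 values above and 2 below 0 for miR-211 and 5 above and 3 below for U1 siRNA. Neither median kept its sign: the first was -0.04 without miR-211 library 2, and the second -0.02 without scrambled oligo library 3 and -0.04 with no filter on low counts.

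**Figure D5:**
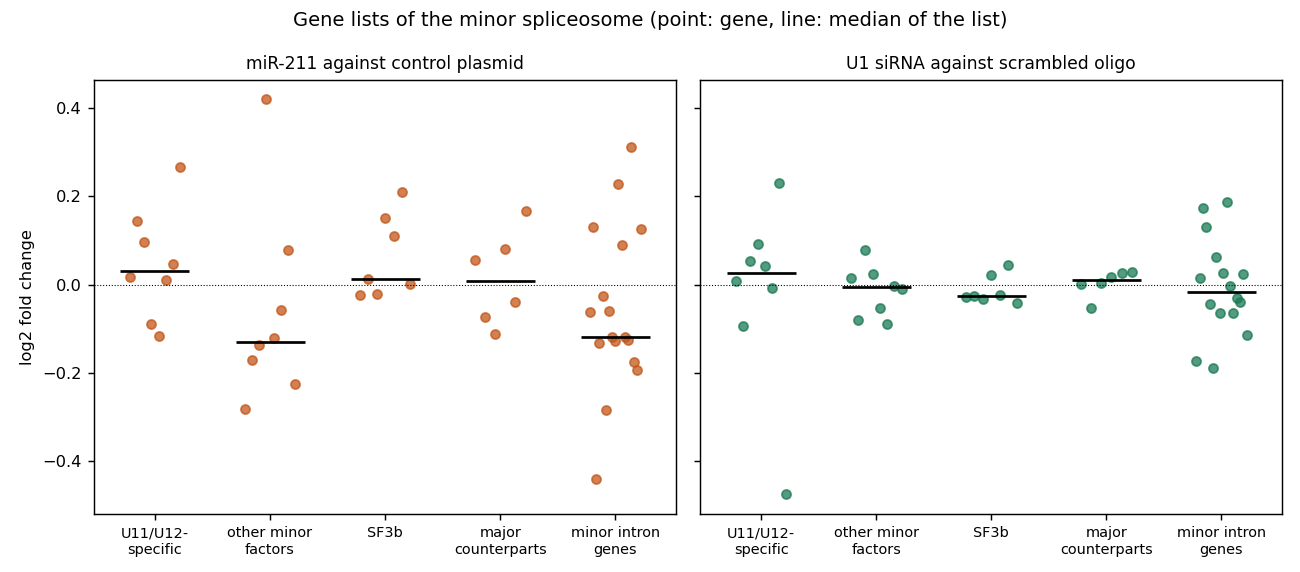
Log2 fold change of each gene, with a line at the list's median, for the 8 U11/U12-specific genes and the other 4 lists in both comparisons. With miR-211 the medians lie between -0.13 and 0.03, and with U1 siRNA between -0.03 and 0.03.

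Between the control groups the same lists had medians of 0.05 for the further minor factors, -0.006 for SF3b, -0.03 for the major counterparts and 0.008 for the minor intron genes, against -0.004 over all genes. None of their genes passed. PPIL2, highest with miR-211, was lowest of its list here at -0.25 (SE 0.21, edgeR adjusted p 0.824), and these values share the control plasmid libraries.

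The RNAs of the minor spliceosome were barely counted. RNU4ATAC was at 3.62, 1.77 and 2.20 CPM with miR-211 and at 1.28, 0.719 and 1.34 CPM with the control plasmid. These are 22, 15 and 17 against 8, 5 and 10 counts. The groups did not overlap, as was so for 9.7% of all genes tested, and 3.29% had an edgeR unadjusted p under 0.05. For RNU4ATAC the log2 fold change was 1.16 (SE 0.40, 95% interval 0.30 to 2.02, edgeR unadjusted p 0.0116, adjusted p 0.996), which did not pass the test. It was too low to be tested with U1 siRNA, where it was at 0.946, 1.55 and 1.39 CPM against 1.36, 1.02 and 1.51 CPM with the scrambled oligo. RNU6ATAC had 5 counts in all. RNU11 and RNU12 were listed at 0, but 131 of 134 and all 150 of their bases lie in exons of other annotated genes, so the counting leaves next to nothing to be assigned to them.

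The protein-coding genes most like the mean pattern of the 8 genes over the 12 libraries were SNRPC, FDPS, PSMB1, RAN and PGK1. Likeness was the root mean square difference of centred log2 CPM, which was 0.03 for SNRPC and 0.04 for the other 4, against a median of 0.15 over 7113 genes with a mean of 10 CPM or more. The 8 genes differed from their own mean pattern by 0.09 for RNPC3 up to 0.27 for ZRSR2. The mean pattern was itself nearly flat, from -0.09 in scrambled oligo library 3 to 0.09 in scrambled oligo library 1. Genes with steady, high counts lie close to such a pattern, so the distances do not show that the named genes vary with the 8. All these values share the same libraries and depths, so the distances describe these 12 libraries only.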

How the data were processed

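How RNA was selected, and whether the kit kept strand, the sources used here do not say. The deposited values are raw counts per gene, for which the submitters' processing notes name STAR 2.7.2a. Each file by the authors has an unstranded column and 2 strand columns. The total of the second strand column was 0.990 to 1.10 times that of the first over the libraries. The counts thus show no preference for a strand, and neither column is specific to 1 strand. The notes name GRCh37 and hg19, but all 58735 gene identifiers match GENCODE 29 on GRCh38, so coordinates come from GENCODE 29 and not from the files. The 4 summary lines entered neither totals nor tests. They put 14.5% to 44.5% of uniquely mapped pairs outside genes, and 6.93% to 10.8% as ambiguous. Totals per library were 4515728 to 9290686, which limits the precision of genes at a few CPM, and intervals cover counting error only.

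The unstranded column was tested with edgeR 4.0.16 (R 4.3.3), using TMM scaling, the filterByExpr filter, its quasi-likelihood F-test and a threshold of 0.05 on p adjusted over all genes (Benjamini-Hochberg). Each comparison used its own 6 libraries, and the difference between both effects all 12. DESeq2 1.42.0, limma-voom 3.58.1, other scalings, filters, strand columns, a replicate block, a covariate and leaving out each library were alternatives. The scripts were tested on simulated counts. CPM was computed by library total, and level per length by the union of annotated exons. The members and gene lists were chosen with earlier results of these data known. All 8 members are named, and of each other list the genes past the threshold and the highest and lowest in log2 fold change. Like patterns are the 5 nearest protein-coding genes of mean CPM 10 or more.

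The miR-211-5p sequence is from RefSeq (GRCh38.p14), and other sequences are from GENCODE 29 transcripts. Intron sequences and protein sequences were not used here, so the planned list of genes by U12-type intron start, and zinc finger patterns, were left out. To check whether replicate numbers pair libraries, deviations from the group means were correlated across genes. Same-numbered libraries of miR-211 and its control gave 0.248, 0.305 and 0.239. Each exceeds 0.1, the cut-off chosen here, so these libraries were treated as varying together by number. The values reported come from the fit without the pairing, and the fit with it was an alternative that changed no call among the 8 genes. The SEs, intervals and p-values given with miR-211 therefore do not use the pairing. Nothing in the labels says that replicates were separate cultures. A p-value here therefore reflects the spread of the libraries alone, possibly a technical one. No 2 replicates matched within counting noise (12 pairs, chi-square over its degrees of freedom 2.15 to 7.25), and none was counted as a repeat.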

Additional observations from a re-analysis of the deposited data

How the results depend on the processing

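None of the 8 genes was called under any of the 66 alternatives run over the 3 comparisons and the difference of effects. Of 528 fold changes, 47 changed sign, the largest of them to a size of 0.24 (log2), and ZRSR2 never did in 66. With library totals only, PDCD7 and ZCRB1 with miR-211 were -0.0105 and -0.0146, ZCRB1 with U1 siRNA was 0.00841, and ZCRB1 in the difference of effects -0.0224. A CPM of at least 1 in 3 libraries put ZCRB1 with miR-211 at -0.00149. In the first strand column ZMAT5 with miR-211 was -0.147, PDCD7 with U1 siRNA -0.0144 and ZCRB1 0.00839. In the second, SNRNP48 with U1 siRNA was -0.0106 and ZMAT5 between the controls -0.0021. DESeq2 put PDCD7 with U1 siRNA at -0.00866. Without a filter SNRNP25, SNRNP48 and PDCD7 with U1 siRNA were -0.0184, -0.0269 and -0.0609, while the median of all genes moved from 0.02 to 0.17 (and from -0.004 to -0.11 between the controls). With the fraction of pairs outside genes as covariate, SNRNP35 and ZCRB1 with U1 siRNA were -0.00498 and 0.000949, and PDCD7 between the controls -0.0869. The causes were not tested.

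Leaving out 1 library at a time gave, with miR-211, -0.0549 to 0.16 for PDCD7, -0.0905 to 0.144 for ZMAT5, -0.0718 to 0.0841 for ZCRB1 and -0.0112 to 0.166 for SNRNP25. With U1 siRNA it gave -0.0667 to 0.169 for SNRNP35, -0.0335 to 0.0155 for ZCRB1, -0.232 to 0.134 for PDCD7 and -0.0138 to 0.103 for SNRNP48. Between the controls it gave -0.0963 to 0.0512 for RNPC3, -0.101 to 0.0423 for SNRNP25 and -0.0836 to 0.325 for PDCD7. For the difference of effects it gave -0.15 to 0.238 for PDCD7, -0.0719 to 0.124 for SNRNP25 and -0.0722 to 0.083 for ZCRB1.

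List medians near 0 also changed sign: over all alternatives they ran, with U1 siRNA, from -0.08 to 0.05 for the further minor factors, -0.09 to 0.05 for SF3b, -0.08 to 0.08 for the major counterparts and -0.07 to 0.001 for the minor intron genes. With miR-211 they ran from -0.01 to 0.06 for SF3b and -0.06 to 0.11 for the major counterparts.

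Counts over all genes moved more. With miR-211, 2 genes passed without a filter and 2 in each strand column, against 1. With U1 siRNA 7 passed without a filter, against 0. Between the controls, against 0, there were 38 by DESeq2, 3 by limma-voom, 4 with library totals only, 51 without a filter, 3 with the CPM filter, 4 and 6 in the strand columns, and 0 to 21 when leaving out a library, the most without scrambled oligo 3. For the difference of effects, 0 passed with library totals only, and 0 to 1 when leaving out a library, against 1.

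With the replicate number as a block, the 8 genes gave 0 calls in each comparison. The block changed counts over all genes to 30 between the controls and to 0 for the difference of effects, and left 1 with miR-211 and 0 with U1 siRNA. For U1 siRNA the correlations behind the numbers were 0.140, 0.0907 and -0.0480, and between the controls 0.0418, 0.0273 and 0.175, so there the samples share only a number, and not every sample correlated best with its own. The planned list of genes by intron start, with its 8-base alternative, was not run.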
